A study of Mus musculus with 65 samples.

Results

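Sorted F4/80+ cells of mouse bone marrow, labelled Mac, were compared with cells sorted by a Pecam-GFP reporter, labelled Pecam_GFP. The comparison rests on 8 of the 65 RNA-seq libraries of the series, 4 Mac libraries and 4 Pecam_GFP libraries. Members of the comparison are the 18179 autosomal genes, of 44381 in the deposited table, with an FPKM (fragments counted per length of transcript and per size of library) of at least 1 in 3 or more of the 42 libraries of the 10 niche populations. The series profiled blood stem and progenitor cells and the cells around them in mouse femur and tibia, at rest and after chemotherapy; all 8 libraries here carry no treatment label. Mac cells were gated as CD45+ and F4/80+, and as lacking CD3, B220, NK1.1 and the YFP reporter of a Pf4-Cre-R26-YFP mouse, in which Cre follows the promoter of the megakaryocyte gene Pf4. Pecam_GFP cells were gated on Pecam-gfp+, and their label lists CD45, Ter119 and CD31 in front of a minus sign, although Pecam1 is the gene of CD31; the label is given here as written. The labels give both populations 1 protocol of enzymatic digestion, staining and flow sorting. Age, strain and sex are not given in the labels.

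Macrophages are long-lived phagocytes that depend on the growth factor receptor Csf1r and the transcription factor PU.1. In marrow, some of them sit in erythroblastic islands, where they hold maturing red cells through Vcam1 and take up expelled nuclei. F4/80 is also carried, at lower levels, by monocytes and eosinophils. The marrow endothelium is built largely of sinusoids, wide thin-walled vessels whose cells clear material from the blood through the stabilin receptors, display selectins and adhesion molecules to passing leukocytes, and give stem cells the factors Cxcl12 and Kitl.

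The Mac label was borne out in part. Genes shared by all myeloid cells were far higher in Mac libraries. The most abundant autosomal protein-coding transcripts of Mac were mostly neutrophil granule and monocyte genes. Many genes of resident and island macrophages, such as Vcam1, Mertk, Siglec1 and C1qa, were at low levels in Mac or were higher in Pecam_GFP. The group is therefore called Mac, or F4/80+ cells, after its label and gate only. Sex-linked genes also split the groups: Eif2s3y, on the Y chromosome, was at 32.5 to 53.4 FPKM in Mac and was listed at 0 in every Pecam_GFP library, and Xist, which is transcribed from an inactive X chromosome, was at 0.007 to 0.044 FPKM in Mac against 17.8 to 31.2 FPKM in Pecam_GFP. Sex and population therefore cannot be told apart, and X and Y genes were left out of the test. That step does not remove effects of sex on autosomal genes. By their gates the populations also differ in reporter line, which cannot be told apart from population either.

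The libraries of each group resembled each other more than those of the other group. Pairwise Pearson correlations over tested genes on the log2(FPKM + 1) scale, given as a description, were 0.925 to 0.940 within Mac, 0.897 to 0.930 within Pecam_GFP and 0.694 to 0.731 between groups. Between 11649 and 12150 genes reached 1 FPKM in a Mac library, against 12824 to 13240 in a Pecam_GFP library. Autosomal genes took 30.8% to 41.6% of the FPKM of a Mac library and 19.4% to 46.5% of that of a Pecam_GFP library, the lowest share being in Pecam_GFP replicate 1. FPKM values carry no read depth, so the depth behind each value is unknown and no counting interval is given. The labels do not say whether replicates are separate mice, so the spread between libraries may be technical. The p-values rest on an estimate of that spread shared by the 42 libraries of the 10 niche populations. In bulk RNA, fewer cells of a type and less RNA per cell cannot be told apart.

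A gene counted as called where limma's adjusted p was below 0.05. The test used log2(FPKM + 1), where 1 is the pseudocount, a scale that understates the change of genes at low levels. Of the 18179 genes, 8967 (49.3%) were called: 3479 (19.1%) were higher in Mac and 5488 (30.2%) were lower. The log2 fold change, Mac over Pecam_GFP, was at least 1 for 2228 of the genes that rose and at most -1 for 3525 of those that fell, and its median over all tested genes was -0.11. The libraries of the groups did not overlap for 7908 genes (43.5%). The counts of gene lists below are to be read against these shares.

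**Figure D1:**
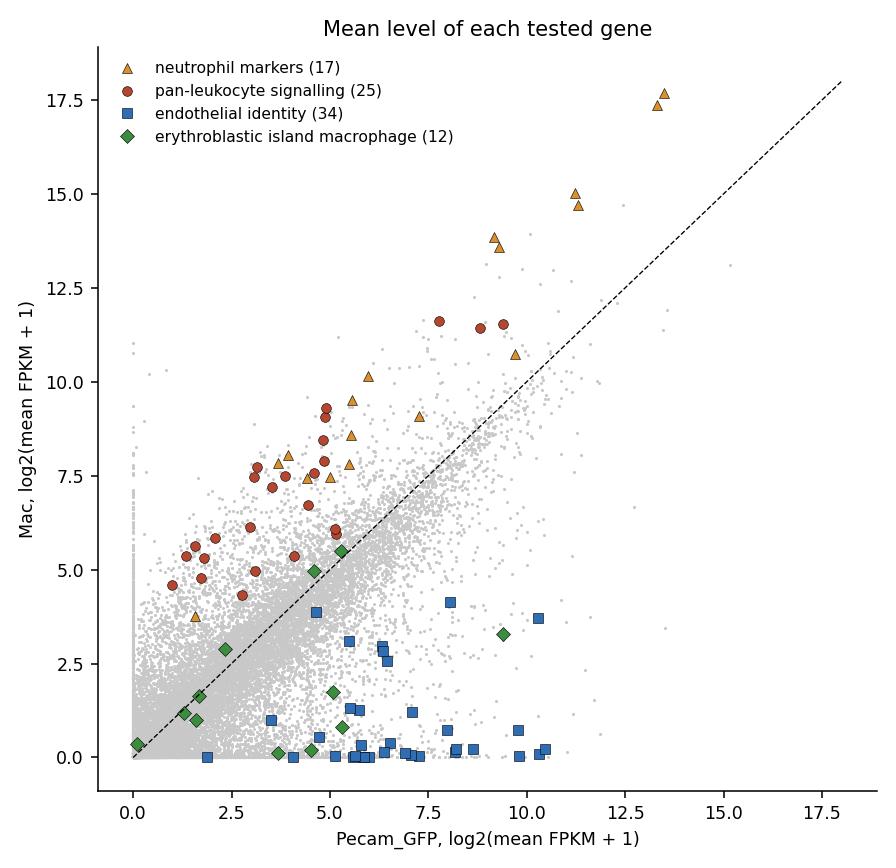
Mean level of each of the 18179 tested genes on a log2(FPKM + 1) scale, Mac on the vertical axis and Pecam_GFP on the horizontal axis, with the members of 4 gene lists marked and the dashed line at equal levels. Neutrophil and pan-leukocyte genes lie above the line, with S100a8 at the top at a Mac mean of 209500 FPKM, endothelial identity genes lie below it, many of them near the foot of the Mac axis, and erythroblastic island genes lie near or below it.

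The F4/80 and CD45 transcripts followed the Mac gate, and Pecam1 followed the Pecam-gfp reporter but not the minus sign behind CD31 in the Pecam_GFP label. Adgre1, the gene of F4/80 (chr17:57358691-57483527, mm10), was at 17.2, 15.0, 20.4 and 23.8 FPKM in Mac libraries, against 1.46, 0.706, 0.853 and 0.665 FPKM in Pecam_GFP libraries. Pecam1 (chr11:106654217-106750628) was at 5.08, 5.03, 4.55 and 4.86 FPKM in Mac, against 75.8, 82.5, 93.3 and 96.6 FPKM in Pecam_GFP. Neither gene's groups overlapped. The log2 fold change was 3.38 ± 0.37 (SE) for Adgre1 (adjusted p = 9.094e-10) and -3.90 ± 0.20 for Pecam1 (adjusted p = 3.544e-18). Ptprc, which encodes CD45, averaged 212 ± 47.1 FPKM in Mac and 7.83 ± 3.44 FPKM in Pecam_GFP (SD, n = 4 each). Pf4, whose promoter drives the Cre excluded from the Mac gate, was at 14.0, 21.7, 6.03 and 2.94 FPKM in Mac and at 150.2, 89.9, 329.8 and 525 FPKM in Pecam_GFP. Cd3e and the NK1.1 gene Klrb1c were near 0 in both populations and were not called.

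Genes that mark macrophages and their myeloid relatives rose as a group in Mac. Of 23 tested genes of macrophage identity, 14 rose, 6 fell and 3 were not called, with a median log2 fold change of 3.04 (against -0.11 over all genes). Csf1r, the receptor for the macrophage growth factor Csf1, was at 36.5, 48.3, 45.5 and 36.3 FPKM in Mac libraries, against 2.04, 1.22, 0.531 and 0.285 FPKM in Pecam_GFP libraries. Mpeg1, a pore-forming protein of phagocytes, was at 82.6, 93.8, 81.0 and 93.5 FPKM in Mac, against 2.92, 2.48, 1.29 and 0.766 FPKM in Pecam_GFP. Every Mac library was far above every Pecam_GFP library for both genes. Log2 fold changes were 4.47 ± 0.31 for Csf1r (adjusted p = 9.996e-15) and 5.02 ± 0.31 for Mpeg1 (adjusted p = 3.025e-16). Itgam, the CD11b integrin of myeloid cells, averaged 142 ± 23.3 FPKM in Mac against 5.95 ± 2.28 FPKM in Pecam_GFP. Cd68, a lysosomal glycoprotein, averaged 155 ± 29.5 FPKM in Mac against 17.5 ± 4.02 FPKM in Pecam_GFP. Also called higher were Fcgr1, the high-affinity IgG receptor (11.5 ± 4.89 FPKM in Mac, 0.197 ± 0.207 FPKM in Pecam_GFP), the fractalkine receptor Cx3cr1 (15.2 ± 1.17 against 0.485 ± 0.380 FPKM), and the signalling adaptor Tyrobp (4886 ± 761 against 405 ± 96.1 FPKM).

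Signalling genes common to leukocytes rose almost as a whole. Of 25 tested pan-leukocyte genes, 24 rose and none fell, with a median log2 fold change of 3.53. Itgb2, the shared chain of the leukocyte integrins, was at 169, 175, 177 and 177 FPKM in Mac libraries, against 6.63, 8.59, 6.22 and 8.23 FPKM in Pecam_GFP libraries. Ptpn6, the phosphatase SHP-1, averaged 627 ± 83.2 FPKM in Mac and 28.8 ± 3.38 FPKM in Pecam_GFP, and Coro1a, an actin regulator, averaged 531 ± 84.1 FPKM in Mac and 28.4 ± 7.59 FPKM in Pecam_GFP. The smallest called rise in the list was that of the kinase Lyn (61.2 ± 7.92 FPKM in Mac, 34.8 ± 6.92 FPKM in Pecam_GFP, log2 fold change 0.81 ± 0.16, adjusted p = 5.171e-05). The phosphatase gene Inpp5d was the member that was not called (66.2 ± 10.1 against 34.0 ± 11.6 FPKM, adjusted p = 0.05928). In a fit of the 8 libraries alone, all 25 members were called higher. Pecam_GFP libraries held these transcripts at low but measurable levels: among the 27 members at 10 FPKM or more in Mac, X-linked Was and Btk included, the median Pecam_GFP level was 8.79% of the Mac level, with a range of 3.70% for Ptprc to 56.8% for Lyn.

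**Figure D2:**
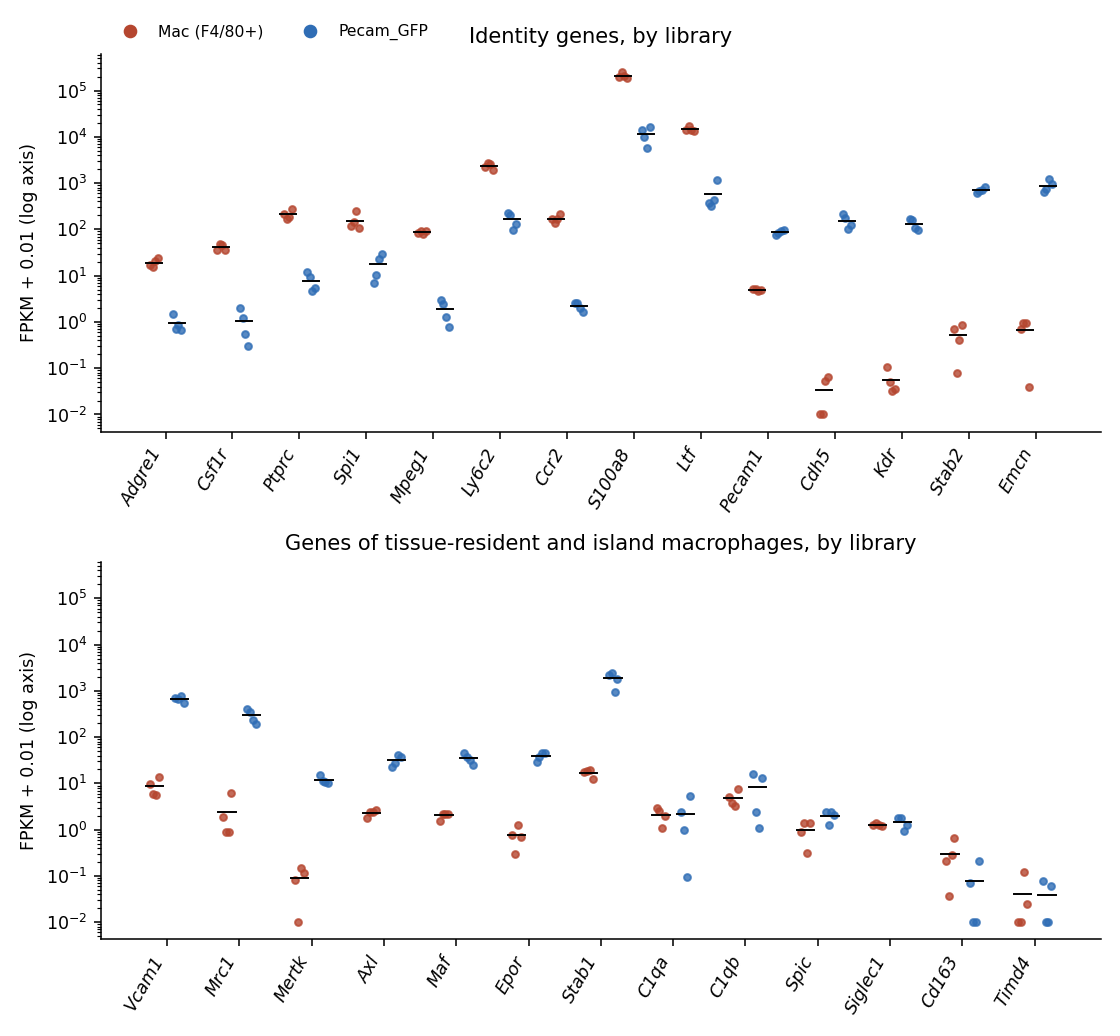
FPKM of each library, with 0.01 added so that values of 0 can be drawn on the log axis; dots are libraries, Mac left and Pecam_GFP right of each gene, and bars are means. In the upper panel the groups separate for all 14 genes shown, Adgre1 to Ltf higher in Mac and Pecam1 to Emcn lower; in the lower panel Vcam1 to Stab1 are lower in Mac and C1qa to Timd4 overlap.

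PU.1, encoded by Spi1, switches on many of these genes by binding a purine-rich site. Spi1 itself was at 118, 142, 246 and 105 FPKM in Mac libraries, against 6.93, 10.2, 23.2 and 29.6 FPKM in Pecam_GFP libraries (log2 fold change 3.18 ± 0.61, adjusted p = 3.478e-05). Promoters from RefSeq (build GRCm38.p6) ran from 250 bases before to 50 bases after each listed start of a gene. They were searched on both strands for the core GAGGAAG. In this and the later searches, a gene counted where any of its listed starts held the core, so genes with more starts had more sequence searched. A printed promoter is that of the first such start. The core was present in 6 of the 15 macrophage identity genes that had a promoter in the table (40%) and in 7 of 19 pan-leukocyte genes (36.8%). Over all 25748 genes with a promoter, 3897 held it (15.1%). The core differs only in its leading letter from the ETS core searched below. The promoters of Itgam (chr7:128062390-128062689, plus strand), which was higher in Mac, and Mrc1 (chr2:14229164-14229463, plus strand), which was lower, are shown because each holds the core at 2 places although the genes moved in opposite directions. Capitals mark the core or its reverse complement.
Itgam promoter: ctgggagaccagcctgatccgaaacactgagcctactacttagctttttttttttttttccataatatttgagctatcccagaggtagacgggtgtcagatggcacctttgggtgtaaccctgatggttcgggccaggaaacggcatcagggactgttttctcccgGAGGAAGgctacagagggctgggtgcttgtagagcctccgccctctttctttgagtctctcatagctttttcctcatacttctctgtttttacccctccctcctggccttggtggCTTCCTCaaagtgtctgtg
Mrc1 promoter: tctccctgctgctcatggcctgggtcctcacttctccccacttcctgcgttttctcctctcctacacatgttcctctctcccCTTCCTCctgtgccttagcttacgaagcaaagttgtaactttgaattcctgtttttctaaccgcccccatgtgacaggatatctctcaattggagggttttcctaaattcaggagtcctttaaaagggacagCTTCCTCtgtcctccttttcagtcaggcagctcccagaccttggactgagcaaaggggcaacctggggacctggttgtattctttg
A match describes these letters and shows neither binding nor a cause of either level.

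The autosomal protein-coding transcripts at the highest levels in Mac were mostly those of neutrophils and monocytes. Of 17 tested neutrophil genes, 16 rose in Mac and none fell, with a median log2 fold change of 4.16. S100a8 and S100a9, the calprotectin subunits packed into neutrophils and monocytes, were the most abundant autosomal protein-coding genes of the Mac group. Genes off the autosomes were not ranked. S100a8 and S100a9 were at 209500 ± 33040 and 170200 ± 30210 FPKM in Mac, against 11540 ± 4800 and 10100 ± 4152 FPKM in Pecam_GFP. Together they made up 10.02% to 16.0% of all FPKM in a Mac library and 0.559% to 1.87% in a Pecam_GFP library. Next in Mac came Camp, an antimicrobial granule peptide, at 33420 ± 6558 FPKM, and Ngp, the neutrophilic granule protein, at 26470 ± 3557 FPKM. Ltf, which encodes the granule protein lactoferrin, was at 14060, 17440, 14380 and 13290 FPKM in Mac libraries, against 369, 321, 430.5 and 1159 FPKM in Pecam_GFP libraries. Ly6g, the surface antigen that defines mouse neutrophils, was at 666, 783, 926 and 558 FPKM in Mac, against 9.77, 30.7, 52.1 and 92.3 FPKM in Pecam_GFP. All Mac libraries carried granulocyte RNA in quantity, and no Pecam_GFP library was free of it. The log2 fold change was 4.89 ± 0.73 for Ltf (adjusted p = 5.756e-07) and 4.32 ± 0.76 for Ly6g (adjusted p = 9.098e-06). Retnlg was the neutrophil gene that was not called (1717 ± 294 FPKM in Mac, 836 ± 254 FPKM in Pecam_GFP, adjusted p = 0.3073). Its libraries did not overlap, at 1385 to 2096 FPKM in Mac and 611 to 1189 FPKM in Pecam_GFP.

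The summed level of the 17 neutrophil genes ran from 395900 to 574700 FPKM in Mac libraries and from 14570 to 45050 FPKM in Pecam_GFP libraries. Their median Pecam_GFP level was 7.20% of that in Mac, close to the 6.89% of macrophage identity genes and the 6.81% of monocyte genes. Each is over members at 10 FPKM or more in Mac. Medians of other lists differed, from 4.83% for eosinophil, mast cell and basophil genes to 1290% for immediate early genes. Single macrophage identity genes ran from 1.72% for Fcgr1 to 146% for Sirpa. Mpo, the myeloperoxidase gene that immature neutrophil precursors transcribe, varied widely between Pecam_GFP libraries: it was at 299, 320.0, 494 and 431 FPKM in Mac, against 117, 53.3, 0.274 and 10.4 FPKM in Pecam_GFP. What part neutrophil RNA has in the differences of other genes was not tested.

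A core bound by C/EBP factors, which drive granule genes, was searched in the same promoters after the values were seen. TTGCNNAA lay in 8 of 16 neutrophil genes with a promoter (50%), against 3178 of 25748 (12.3%). The promoter of Ngp (chr9:110419558-110419857, plus strand) is given as an example with 2 matches, in capitals. Fcnb had 2 matches as well.
Ngp promoter: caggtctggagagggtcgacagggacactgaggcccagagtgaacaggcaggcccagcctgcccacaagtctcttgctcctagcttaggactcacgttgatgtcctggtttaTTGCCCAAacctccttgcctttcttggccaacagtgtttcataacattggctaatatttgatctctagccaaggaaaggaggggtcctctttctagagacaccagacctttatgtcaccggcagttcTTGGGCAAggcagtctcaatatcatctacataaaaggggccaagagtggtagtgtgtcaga

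Monocyte genes moved the same way, 11 of 12 rising and 1 falling (median log2 fold change 3.77). Ly6c2, the antigen of classical monocytes, averaged 2329 ± 374 FPKM in Mac and 164 ± 62.4 FPKM in Pecam_GFP. Ccr2, the receptor with which monocytes leave the marrow, was at 171, 135, 167 and 213 FPKM in Mac libraries, against 2.59, 2.50, 1.96 and 1.59 FPKM in Pecam_GFP libraries (log2 fold change 5.76 ± 0.35, adjusted p = 1.913e-16). Mac had the highest mean Ccr2 of all 10 niche populations; the MK population, CD45+ cells sorted as positive for the Pf4-Cre-R26-YFP reporter, had 41.7 ± 12.2 FPKM (SD, n = 4). F13a1, a coagulation factor of monocytes, averaged 70.8 ± 13.4 FPKM in Mac and 2.47 ± 1.21 FPKM in Pecam_GFP, and the membrane protein gene Ms4a6c averaged 262 ± 34.0 FPKM in Mac and 8.95 ± 6.19 FPKM in Pecam_GFP. The exception was Nr4a1, a nuclear receptor of non-classical monocytes that is also an immediate early gene (5.48 ± 0.970 FPKM in Mac, 94.3 ± 10.6 FPKM in Pecam_GFP).

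Genes of eosinophils, mast cells and basophils were high in Mac but uneven between its libraries. Of 9 tested, 8 rose and none fell (median 4.71). Prg2, the eosinophil major basic protein, was at 6.17, 185, 1173 and 511 FPKM in Mac, against 28.7, 0.521, 0.114 and 0.206 FPKM in Pecam_GFP, so the groups overlapped at Mac replicate 1 and Pecam_GFP replicate 1. The basophil protease gene Mcpt8 was at 192, 562, 689 and 466 FPKM in Mac, against 257, 0.254, 0.111 and 0 FPKM in Pecam_GFP. Prss34, another basophil protease, was at 168, 427, 589.6 and 263 FPKM in Mac, against 137, 0, 0.071 and 0 FPKM in Pecam_GFP (log2 fold change 6.55 ± 2.31, adjusted p = 0.01772). In Pecam_GFP, both basophil genes were above 1 FPKM in replicate 1 only. Prss34 was no longer called when Pecam_GFP replicate 2, 3 or 4 was left out (adjusted p = 0.05098, 0.05064 and 0.05178).

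Some antibody transcripts were at higher levels in Mac libraries. Jchain, which joins polymeric antibodies, was at 333, 74.0, 153 and 214 FPKM in Mac libraries and at 0.245, 0.555, 0.182 and 0.027 FPKM in Pecam_GFP libraries (log2 fold change 7.10 ± 1.14, adjusted p = 1.993e-06). The immunoglobulin light chain gene Igkc was at 4509, 519, 5513 and 2250 FPKM in Mac, against 208, 115, 126 and 207 FPKM in Pecam_GFP; immunoglobulin genes share sequence with near copies, so their counts are uncertain. The B cell list, which includes Jchain and Igkc, did not follow as a whole: of 15 tested genes, 3 rose and 6 fell. In a fit of protein-coding genes only, 1 of 13 tested genes of this list rose. Cd79a, part of the B cell receptor, averaged 2.14 ± 2.23 FPKM in Mac and 20.8 ± 7.42 FPKM in Pecam_GFP. T and NK genes were mostly not called (3 rose and 2 fell of 15; 1 fell without Mac replicate 3, Mac replicate 4 or Pecam_GFP replicate 1).

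Genes that distinguish resident and island macrophages behaved differently from the myeloid genes above. Of 12 tested genes of erythroblastic island macrophages none was called higher in Mac, 5 fell and 7 were not called (median log2 fold change -0.35). Vcam1, which holds erythroblasts to the macrophage (chr3:116109949-116129688), was at 9.54, 5.89, 5.72 and 13.9 FPKM in Mac libraries, against 692, 664, 768 and 556 FPKM in Pecam_GFP libraries. Mertk, a receptor for dying cells, was at 0.073, 0, 0.137 and 0.103 FPKM in Mac, against 15.5, 11.1, 10.8 and 10.1 FPKM in Pecam_GFP. Both were lower in every Mac library than in any Pecam_GFP library. Log2 fold changes were -6.17 ± 0.22 for Vcam1 (adjusted p = 8.478e-23) and -3.56 ± 0.32 for Mertk (adjusted p = 8.997e-12). Axl, a receptor of the same family as Mertk, averaged 2.32 ± 0.403 FPKM in Mac and 32.6 ± 8.76 FPKM in Pecam_GFP, and the erythropoietin receptor gene Epor averaged 0.740 ± 0.393 FPKM in Mac and 38.6 ± 7.68 FPKM in Pecam_GFP.

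Of the 7 island genes that were not called, 3 were well above 1 FPKM in both groups: the integrin gene Itgav (44.4 ± 8.71 FPKM in Mac, 38.0 ± 9.99 FPKM in Pecam_GFP), Maea, which attaches erythroblasts to macrophages (30.4 ± 2.68 against 23.0 ± 5.84 FPKM), and Dnase2a, which digests the DNA of expelled nuclei (6.45 ± 1.54 against 4.06 ± 1.04 FPKM). The others were Siglec1, the sialic acid receptor CD169 (1.27 ± 0.078 FPKM in Mac, 1.43 ± 0.422 FPKM in Pecam_GFP), the hemoglobin scavenger receptor gene Cd163 (0.287 ± 0.261 against 0.066 ± 0.095 FPKM), Spic, a regulator of iron-recycling macrophages (0.990 ± 0.522 against 2 ± 0.537 FPKM), and C1qa. The phosphatidylserine receptor gene Timd4, from the macrophage identity list, was also not called (0.032 ± 0.054 against 0.029 ± 0.034 FPKM). C1qa, a complement subunit made by resident macrophages, was at 2.89, 2.48, 1.06 and 1.94 FPKM in Mac libraries, against 2.35, 0.987, 0.086 and 5.34 FPKM in Pecam_GFP libraries, an overlap with an adjusted p of 0.8849. A gene that was not called is not shown to be equal in the groups. Under median-of-ratios scaling, 2 of the 12 island genes were called higher in Mac, and 1 was when Pecam_GFP replicate 4 was left out.

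Set beside the other niche populations, several of these genes peaked in the MK group. C1qa averaged 98.9 ± 55.9 FPKM in MK (SD, n = 4), 2.09 ± 0.794 FPKM in Mac and 2.19 ± 2.298 FPKM in Pecam_GFP. Spic averaged 32.9 ± 22.1 FPKM in MK and Cd163 5.36 ± 3.31 FPKM. Adgre1 in MK, at 20.9 ± 3.54 FPKM, was within the spread of its level in Mac, 19.1 ± 3.83 FPKM. MK libraries also carried S100a8, at 115600 ± 81420 FPKM. Mrc1, the mannose receptor of macrophages and sinusoids, was at 1.85, 0.895, 0.898 and 6.07 FPKM in Mac and at 401, 346, 239 and 189.7 FPKM in Pecam_GFP, and averaged 46.5 ± 17.1 FPKM in MK.

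**Figure D3:**
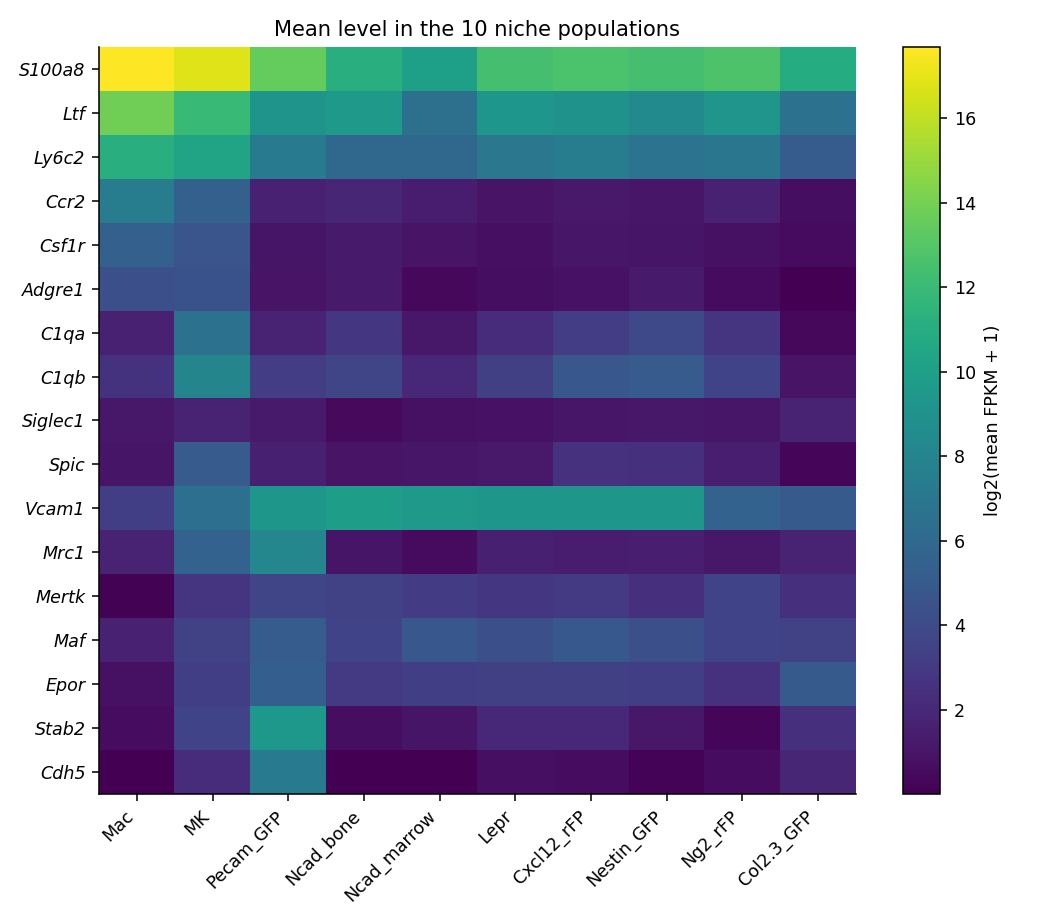
Mean levels on a log2(FPKM + 1) scale of selected genes in the 10 niche populations, with Mac, MK and Pecam_GFP leftmost. Granulocyte and monocyte genes are strongest in Mac and MK, island genes such as C1qa and Spic peak in MK, and endothelial genes such as Cdh5 and Stab2 peak in Pecam_GFP.

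Of 21 tested transcription factors of macrophages, 7 rose and 9 fell (median -0.61). Alongside Spi1, the lymphoid and myeloid factor Ikzf1 averaged 35.5 ± 5.27 FPKM in Mac and 2.50 ± 0.351 FPKM in Pecam_GFP, and Irf5, which acts in inflammatory macrophages, averaged 54.1 ± 3.31 FPKM in Mac and 12.8 ± 3.74 FPKM in Pecam_GFP. Maf, which accompanies macrophage maturation, went the other way and averaged 2.03 ± 0.314 FPKM in Mac and 35.0 ± 8.39 FPKM in Pecam_GFP. Id3, a helix-loop-helix inhibitor that resident macrophages and many other cells use, averaged 1.16 ± 0.310 FPKM in Mac and 1254 ± 188 FPKM in Pecam_GFP (log2 fold change -9.18 ± 0.16, adjusted p = 1.601e-31). Pparg, a lipid sensor, averaged 2.50 ± 1.49 FPKM in Mac and 307 ± 112 FPKM in Pecam_GFP.

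Genes for functions of phagocytes were divided between the populations. Genes of the oxidative burst were higher in Mac: all 4 tested genes of the NADPH oxidase rose (median 3.91). The cytosolic subunit gene Ncf1 was at 187, 219, 187 and 180.3 FPKM in Mac libraries, against 8.25, 6.75, 3.44 and 8.64 FPKM in Pecam_GFP libraries (log2 fold change 4.70 ± 0.34, adjusted p = 2.113e-14). Cybb, the X-linked membrane subunit, was not tested and averaged 524 ± 74.1 FPKM in Mac and 13.3 ± 4.92 FPKM in Pecam_GFP. Of 22 tested microbial sensors 12 rose and 5 fell (median 1.02). The beta-glucan receptor gene Clec7a averaged 82.7 ± 16.2 FPKM in Mac and 9.92 ± 6.27 FPKM in Pecam_GFP. Ly96, the partner with which Tlr4 binds lipopolysaccharide, fell to 63.2 ± 4.43 FPKM in Mac, against 1031 ± 165 FPKM in Pecam_GFP, and the RNA sensor gene Tlr3 fell to 0.235 ± 0.1701 FPKM in Mac, against 6.44 ± 1.09 FPKM in Pecam_GFP. Tlr4 itself was not called (3.77 ± 1.39 against 3.13 ± 1.15 FPKM).

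Of 13 tested Fc and complement receptors, 7 rose and 3 fell (median 0.72). Fcgr3, an activating IgG receptor, averaged 171 ± 31.4 FPKM in Mac and 15.9 ± 5.10 FPKM in Pecam_GFP. Fcgr2b, the inhibitory IgG receptor, was at 85.6, 88.5, 95.1 and 85.8 FPKM in Mac, against 77.5, 75.7, 94.6 and 88.4 FPKM in Pecam_GFP; the groups overlapped (adjusted p = 0.9414). Fcgrt, the neonatal Fc receptor that recycles IgG, fell to 5.57 ± 1.44 FPKM in Mac, against 396 ± 172 FPKM in Pecam_GFP (log2 fold change -5.83 ± 0.28, adjusted p = 5.023e-19). Among 11 tested complement components 1 rose and 7 fell. The riser was C3, the central component, at 558, 649, 447 and 529 FPKM in Mac libraries, against 22.5, 16.5, 10.9 and 44.1 FPKM in Pecam_GFP libraries. Factor D, encoded by Cfd, averaged 0.010 ± 0.021 FPKM in Mac and 326 ± 61.3 FPKM in Pecam_GFP, and Cd55, which shields cells from complement, averaged 5.74 ± 2.40 FPKM in Mac and 174 ± 37.5 FPKM in Pecam_GFP.

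Genes of antigen presentation by MHC class II leaned to Mac: of 15 tested, 8 rose, 6 were not called and 1 fell (median 0.87). The faller was the maturation marker gene Cd83. H2-Ab1 averaged 177 ± 27.2 FPKM in Mac and 56.8 ± 23.5 FPKM in Pecam_GFP (adjusted p = 0.02438), and the costimulatory gene Cd86 averaged 13.7 ± 3.66 FPKM in Mac and 1.56 ± 0.946 FPKM in Pecam_GFP. The invariant chain gene Cd74 was not called (231 ± 74.5 against 129.9 ± 55.6 FPKM, adjusted p = 0.3513). The fall of Cd83 was not called when Mac replicate 4 or Pecam_GFP replicate 4 was left out, nor in a fit of the 8 libraries alone.

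Lysosomal genes went both ways, 13 of 33 rising and 7 falling (median 0.43). The cathepsins divided: Ctss, the cathepsin of antigen-presenting cells, was at 554, 641, 756 and 636 FPKM in Mac libraries, against 30.9, 27.4, 27.6 and 26.3 FPKM in Pecam_GFP libraries, while Ctsl was at 13.8, 10.6, 12.8 and 11.98 FPKM in Mac, against 2558, 2844, 3831 and 3227 FPKM in Pecam_GFP. Log2 fold changes were 4.47 ± 0.58 for Ctss (adjusted p = 3.761e-08) and -7.86 ± 0.22 for Ctsl (adjusted p = 1.968e-25). Lgmn, an asparaginyl endopeptidase, averaged 8.39 ± 3.68 FPKM in Mac and 326 ± 174 FPKM in Pecam_GFP. Ctsd, an aspartic protease, averaged 47.0 ± 12.6 FPKM in Mac and 183 ± 67.4 FPKM in Pecam_GFP. Tfeb, the transcription factor that coordinates lysosomal genes, rose (9.74 ± 2.26 FPKM in Mac, 1.90 ± 0.854 FPKM in Pecam_GFP). Its core TCACGTG, on either strand, lay in 8 of the 27 lysosomal genes with a promoter in the table (29.6%), against 1099 of 25748 (4.27%). The Ctsd promoter (chr7:142387778-142388077, minus strand, written in the direction of the gene) is shown because the core occurs at 2 places in it, and at 1 of them is read on both strands.
Ctsd promoter: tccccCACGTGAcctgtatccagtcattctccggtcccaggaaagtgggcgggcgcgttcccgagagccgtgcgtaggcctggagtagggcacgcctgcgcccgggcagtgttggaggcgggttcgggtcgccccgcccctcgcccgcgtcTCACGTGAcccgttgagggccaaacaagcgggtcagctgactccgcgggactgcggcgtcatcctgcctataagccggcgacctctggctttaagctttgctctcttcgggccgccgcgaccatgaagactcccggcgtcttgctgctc

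Genes for the handling of iron, lipid and dying cells leaned to Pecam_GFP. Of 20 tested iron and heme genes 4 rose and 10 fell (median -0.64). The iron exporter gene Slc40a1 rose (23.3 ± 3.85 FPKM in Mac, 8.42 ± 1.58 FPKM in Pecam_GFP), as did the phagosomal metal transporter gene Slc11a1 (13.2 ± 1.15 against 1.98 ± 0.943 FPKM). Heme oxygenase, Hmox1, was not called (16.6 ± 3.29 against 24.9 ± 12.2 FPKM, adjusted p = 0.3024), and the ferritin heavy chain gene Fth1 fell to 995 ± 198 FPKM in Mac, against 3681 ± 512 FPKM in Pecam_GFP. Of 20 tested lipid genes 5 rose and 12 fell (median -0.83). Fabp4, a fatty acid carrier, was at 10.7, 8.18, 14.0 and 6.84 FPKM in Mac libraries, against 13800, 12340, 10620 and 10100 FPKM in Pecam_GFP libraries (log2 fold change -10.10 ± 0.59, adjusted p = 7.871e-17). The lipid receptor gene Trem2 rose (12.9 ± 4.28 FPKM in Mac, 0.458 ± 0.367 FPKM in Pecam_GFP). Of 24 tested engulfment genes 5 rose and 13 fell (median -0.95), the bridging proteins Gas6 (0.242 ± 0.178 against 21.7 ± 4.65 FPKM) and Mfge8 (2.10 ± 0.603 against 83.6 ± 20.1 FPKM) among those that fell. Anxa1, which resolves inflammation and coats dying neutrophils, rose (3101 ± 17.9 FPKM in Mac, 494 ± 221 FPKM in Pecam_GFP).

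Nearly all endothelial genes were lower in Mac. Of 34 tested endothelial identity genes 33 fell and none rose (median log2 fold change -5.81), and 31 had their highest mean of all 10 populations in Pecam_GFP. Cdh5, the VE-cadherin that holds endothelial cells together, was at 0, 0, 0.042 and 0.055 FPKM in Mac libraries, against 212, 174, 103 and 122 FPKM in Pecam_GFP libraries. Kdr, the main VEGF receptor, was at 0.098, 0.040, 0.022 and 0.026 FPKM in Mac, against 165, 160.0, 108 and 99.0 FPKM in Pecam_GFP. Endomucin, Emcn, was at 0.686, 0.959, 0.916 and 0.030 FPKM in Mac, against 641, 743, 1197 and 951 FPKM in Pecam_GFP. These values leave no overlap, and these markers sat below 1 FPKM in each Mac library. The log2 fold change was -7.17 ± 0.29 for Cdh5 (adjusted p = 3.799e-21), -6.96 ± 0.30 for Kdr (adjusted p = 2.14e-20) and -9.07 ± 0.46 for Emcn (adjusted p = 1.279e-18). Cd34, which blood progenitors share with vessels, was the 1 gene not called (13.7 ± 4.53 FPKM in Mac, 24.0 ± 8.24 FPKM in Pecam_GFP, adjusted p = 0.168).

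Promoters of the endothelial genes were searched for CAGGAAG, a core of the ETS family to which Erg and Fli1 belong, on both strands. It lay in 8 of 19 endothelial genes with a promoter in the table (42.1%), against 3840 of all 25748 (14.9%). Robo4, a guidance receptor that stabilises vessels (chr9:37401722-37402021, plus strand), and Egfl7, a secreted endothelial protein (chr2:26580833-26581132, plus strand), are shown as members with 1 and 2 matches, in capitals.
Robo4 promoter: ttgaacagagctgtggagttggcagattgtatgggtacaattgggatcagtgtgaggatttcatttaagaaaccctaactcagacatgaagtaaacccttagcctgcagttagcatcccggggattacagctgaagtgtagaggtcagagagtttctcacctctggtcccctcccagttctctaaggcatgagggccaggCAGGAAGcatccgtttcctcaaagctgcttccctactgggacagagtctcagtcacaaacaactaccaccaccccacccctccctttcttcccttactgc
Egfl7 promoter: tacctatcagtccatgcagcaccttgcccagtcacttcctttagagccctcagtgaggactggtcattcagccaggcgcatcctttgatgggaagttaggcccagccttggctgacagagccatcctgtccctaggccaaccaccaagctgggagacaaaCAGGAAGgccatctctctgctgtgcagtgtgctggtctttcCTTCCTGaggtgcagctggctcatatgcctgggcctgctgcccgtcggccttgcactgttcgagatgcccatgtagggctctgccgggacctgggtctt
Robo4 was at 0.053, 0.066, 0.136 and 0.195 FPKM in Mac libraries, against 88.0, 91.9, 59.1 and 87.0 FPKM in Pecam_GFP libraries, and Egfl7 averaged 12.2 ± 2.44 FPKM in Mac and 1237 ± 230.4 FPKM in Pecam_GFP.

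Transcription factors of the endothelium fell in most cases, and a few regulators shared with blood cells did not. Of 24 tested, 2 rose and 15 fell (median -1.69). Sox18, a vascular SOX factor, averaged 0.022 ± 0.044 FPKM in Mac and 195 ± 22.7 FPKM in Pecam_GFP, and Sox17, its arterial relative, was listed at 0 in every Mac library, against 14.4, 7.59, 13.6 and 17.4 FPKM in Pecam_GFP. Nr2f2, which sets venous identity, averaged 0.035 ± 0.020 FPKM in Mac and 50.1 ± 12.99 FPKM in Pecam_GFP. The ETS factor gene Erg fell (5.19 ± 0.794 FPKM in Mac, 16.7 ± 5.87 FPKM in Pecam_GFP). Fli1, an ETS factor of both blood and vessels, was at 25.0, 23.3, 21.7 and 24.8 FPKM in Mac, against 29.0, 24.4, 19.6 and 18.4 FPKM in Pecam_GFP, an overlap with an adjusted p of 0.8403. The partners Lmo2 (93.6 ± 9.69 against 34.9 ± 6.11 FPKM) and Lyl1 (15.4 ± 2.95 against 4.93 ± 1.203 FPKM), both of which act in blood progenitors, rose in Mac.

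Sinusoidal genes had the lowest median among the endothelial lists. Of 14 tested, 13 fell and 1 rose (median -5.96). Stab2, the scavenger receptor of sinusoids (chr10:86841198-87008025), was at 0.698, 0.070, 0.403 and 0.844 FPKM in Mac libraries, against 603, 680.1, 714 and 821 FPKM in Pecam_GFP libraries (log2 fold change -8.90 ± 0.60, adjusted p = 3.636e-15). Ackr1, the chemokine receptor of venules, was at 0.051, 0, 2.16 and 0 FPKM in Mac, against 3976, 3417, 4651 and 2731 FPKM in Pecam_GFP. Stab1, which macrophages also carry, averaged 17.1 ± 3.20 FPKM in Mac and 1866 ± 661 FPKM in Pecam_GFP. The E-selectin gene Sele averaged 0.227 ± 0.076 FPKM in Mac and 110.1 ± 18.1 FPKM in Pecam_GFP, and Icam1, a ligand of leukocyte integrins, averaged 4.96 ± 0.693 FPKM in Mac and 242 ± 30.6 FPKM in Pecam_GFP. Lyve1, of lymphatic and some sinusoidal vessels, was the riser, at a level under 1 FPKM in every library (0.548 ± 0.216 FPKM in Mac, 0.144 ± 0.080 FPKM in Pecam_GFP, adjusted p = 0.02285); it was not called without Mac replicate 3 or Pecam_GFP replicate 2 or 4 (adjusted p = 0.09626, 0.0567 and 0.05449).

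Arterial and type H genes fell in 16 of 17 cases, with smaller sizes (median -2.51). Ly6a, the Sca-1 antigen of arterial vessels and blood progenitors, averaged 44.9 ± 11.4 FPKM in Mac and 1089 ± 112 FPKM in Pecam_GFP. Of 15 tested Notch genes 2 rose and 8 fell (median -0.78). The ligand gene Dll4 averaged 0.0065 ± 0.0082 FPKM in Mac and 15.0 ± 3.15 FPKM in Pecam_GFP, and the target gene Hes1 averaged 0.988 ± 0.254 FPKM in Mac and 236 ± 35.8 FPKM in Pecam_GFP (log2 fold change -6.89 ± 0.18, adjusted p = 1.841e-26). Receptors differed in direction: Notch2 rose (3.10 ± 0.284 against 0.764 ± 0.136 FPKM) and Notch4 fell (1.54 ± 1.196 against 6.62 ± 2.15 FPKM). Notch1 fell as well (6.001 ± 0.955 against 11.2 ± 2.87 FPKM) but was not called without Mac replicate 2, Pecam_GFP replicate 1 or Pecam_GFP replicate 2 (limma adjusted p = 0.0835, 0.08017 and 0.08442), with a pseudocount of 0.1 (0.08432) or under median-of-ratios scaling (0.115).

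All 20 tested genes of junctions and caveolae fell (median -4.09). The tight junction gene Cldn5 was at 0.346, 0.095, 0.026 and 0 FPKM in Mac libraries, against 166, 273, 281 and 430.5 FPKM in Pecam_GFP libraries. Cavin3, a coat protein of caveolae, averaged 1.23 ± 0.768 FPKM in Mac and 378 ± 139.6 FPKM in Pecam_GFP. Of 18 tested basement membrane genes 17 fell and 1 rose (median -3.73). Nid1, a linker of laminin and collagen, averaged 0.011 ± 0.0089 FPKM in Mac and 77.7 ± 16.9 FPKM in Pecam_GFP, and the matrix glycoprotein gene Sparc averaged 1.22 ± 0.530 FPKM in Mac and 2327 ± 825 FPKM in Pecam_GFP. Fibronectin, Fn1, which monocytes make, was the riser, at 196, 161, 191 and 224 FPKM in Mac against 8.55, 12.2, 7.64 and 4.41 FPKM in Pecam_GFP (log2 fold change 4.46 ± 0.33, adjusted p = 4.145e-14).

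Scavenger receptors that macrophages and sinusoids share separated by member, 5 of 19 rising and 10 falling (median -1.05). Msr1, the class A scavenger receptor, rose (12.5 ± 2.10 FPKM in Mac, 5.27 ± 1.204 FPKM in Pecam_GFP), as did Lrp1, a receptor for many ligands (17.96 ± 4.76 against 1.49 ± 0.737 FPKM), and the oxidized lipoprotein receptor gene Olr1 (14.7 ± 0.607 against 1.88 ± 0.720 FPKM). With a pseudocount of 0.1, Msr1 was not called (limma adjusted p = 0.09007). Cd36, a fatty acid receptor, fell to 5.24 ± 2.59 FPKM in Mac, against 432 ± 166 FPKM in Pecam_GFP, and Dab2, an endocytic adaptor, fell to 0.190 ± 0.197 FPKM in Mac, against 178 ± 8.71 FPKM in Pecam_GFP.

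**Figure D4:**
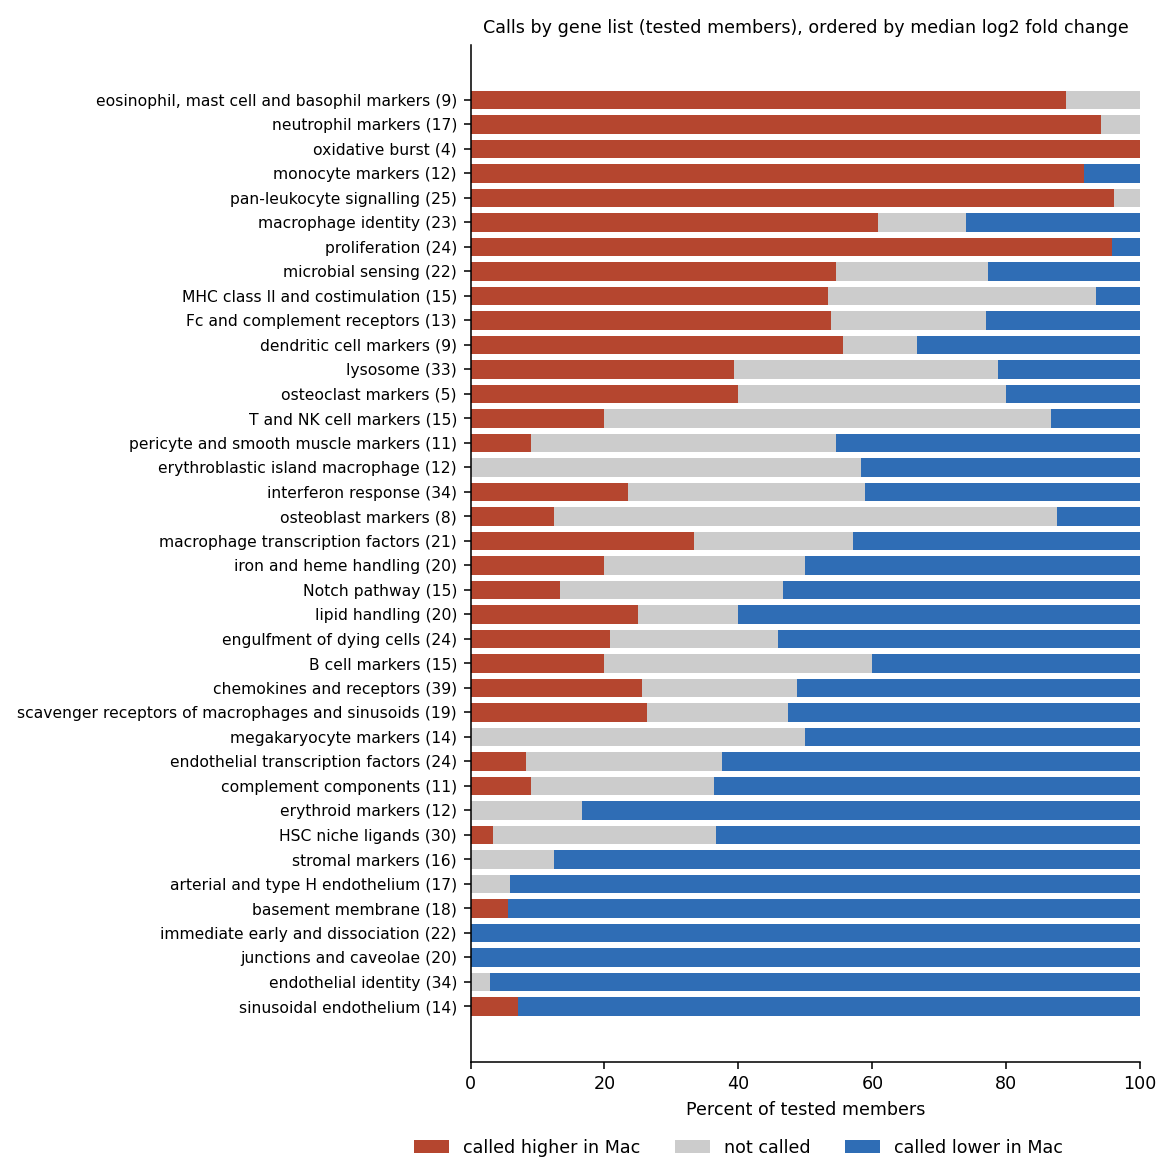
Percent of the tested members of each gene list that were called higher in Mac, not called, or called lower in Mac, with lists ordered by their median log2 fold change. Neutrophil, oxidative burst, monocyte and pan-leukocyte lists are nearly all higher in Mac, and endothelial identity, sinusoidal, junction and immediate early lists are nearly all lower.

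Ligands that maintain blood stem cells were lower in Mac in most cases, with 1 of 30 tested rising, 19 falling and 10 not called (median -2.05). Cxcl12 was at 2.71, 1.81, 2.60 and 0.589 FPKM in Mac libraries, against 173, 222, 321 and 311 FPKM in Pecam_GFP libraries (log2 fold change -6.49 ± 0.41, adjusted p = 5.848e-16). Kitl, the stem cell factor, was at 0.026, 0, 0.067 and 0.033 FPKM in Mac, against 11.1, 7.12, 7.85 and 7.402 FPKM in Pecam_GFP. Both lacked overlap and were close to 0 in Mac. Stroma was far above either group: Cxcl12 averaged 17350 ± 2102 FPKM in the Ncad_bone population. Angpt1, the angiopoietin that activates Tek, was the riser, at 8.15, 3.96, 3.98 and 5.68 FPKM in Mac against 0.517, 0.774, 1.32 and 0.676 FPKM in Pecam_GFP (log2 fold change 1.79 ± 0.29, adjusted p = 2.427e-06). Osm, a cytokine that acts on vessels and stroma, had groups that did not overlap and was not called (4.96 ± 0.584 FPKM in Mac, 2.79 ± 1.01 FPKM in Pecam_GFP, adjusted p = 0.1286). In a fit of the 8 libraries alone Osm was called higher (log2 difference 0.69, limma adjusted p 0.03453), which made 2 risers among the niche ligands.

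Of 39 tested chemokines and receptors 10 rose and 20 fell (median -1.04). Ccl6 and Ccl9, chemokines of myeloid cells, averaged 652 ± 115 and 262 ± 85.8 FPKM in Mac, against 90.8 ± 31.3 and 13.9 ± 3.71 FPKM in Pecam_GFP. Cxcl10, an interferon-induced chemokine, was at 21.8, 36.3, 66.2 and 10.8 FPKM in Mac libraries, against 1119, 1015, 981 and 992 FPKM in Pecam_GFP libraries. The neutrophil attractant gene Cxcl1 averaged 0.095 ± 0.054 FPKM in Mac and 279 ± 54.1 FPKM in Pecam_GFP. The receptor gene Cxcr2, to which Cxcl1 binds, rose (12.5 ± 0.641 FPKM in Mac, 1.97 ± 0.761 FPKM in Pecam_GFP).

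Ligands and receptors that form known pairs were compared for 44 pairs of which both genes were in the table. In 14 pairs the ligand fell and the receptor rose in Mac, and in 15 both fell. Over all tested genes, 19.1% rose and 30.2% fell. A single pair, Tnf and Tnfrsf1b, rose on both sides, and the ligand rose while the receptor fell for 2 pairs, Angpt1 with Tek and Tnf with Tnfrsf1a; C3 rose while its receptor gene C3ar1 was not called. Pairs share genes and are not independent. Among the 14, the rise of Tnfrsf11a, the receptor of Tnfsf11, was not called without Pecam_GFP replicate 2, with a pseudocount of 0.1 or in a fit of the 8 libraries alone (limma adjusted p = 0.05483, 0.1294 and 0.07056). Among the 15, Dll4 with Notch1 rests on the call of Notch1 described above.

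The 14 pairs were picked by the direction of their calls, so that direction is not a further result. They included adhesion molecules with their leukocyte partners. Selp, the P-selectin gene, averaged 2.85 ± 1.75 FPKM in Mac and 196 ± 36.0 FPKM in Pecam_GFP, while its ligand gene Selplg averaged 69.3 ± 12.7 FPKM in Mac and 6.83 ± 1.95 FPKM in Pecam_GFP. Vcam1 met Itga4, its integrin, at 16.9 ± 3.48 FPKM in Mac and 1.203 ± 0.216 FPKM in Pecam_GFP. Growth and traffic signals were also among the 14. Csf1 averaged 1.60 ± 0.247 FPKM in Mac and 12.4 ± 1.89 FPKM in Pecam_GFP, opposite to Csf1r. Ccl2, the ligand of Ccr2, averaged 4.98 ± 3.41 FPKM in Mac and 55.3 ± 19.4 FPKM in Pecam_GFP. Cxcr4, the receptor of Cxcl12, averaged 38.0 ± 4.76 FPKM in Mac and 5.27 ± 1.60 FPKM in Pecam_GFP.

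Tnf, an inflammatory cytokine, was at 13.9, 15.8, 16.0 and 14.3 FPKM in Mac libraries, against 0.548, 0.394, 0.352 and 0.636 FPKM in Pecam_GFP libraries (log2 fold change 3.44 ± 0.26, adjusted p = 9.265e-14). Tnfrsf1a, its broadly used receptor, fell to 33.0 ± 2.93 FPKM in Mac, against 112 ± 24.9 FPKM in Pecam_GFP. Tek, the receptor of Angpt1, averaged 0.309 ± 0.283 FPKM in Mac and 91.1 ± 14.5 FPKM in Pecam_GFP. The VEGF ligand gene Vegfa fell (6.45 ± 1.88 against 24.9 ± 4.84 FPKM), and Osmr, the receptor of Osm, averaged 0.041 ± 0.041 FPKM in Mac and 42.9 ± 4.29 FPKM in Pecam_GFP.

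**Figure D5:**
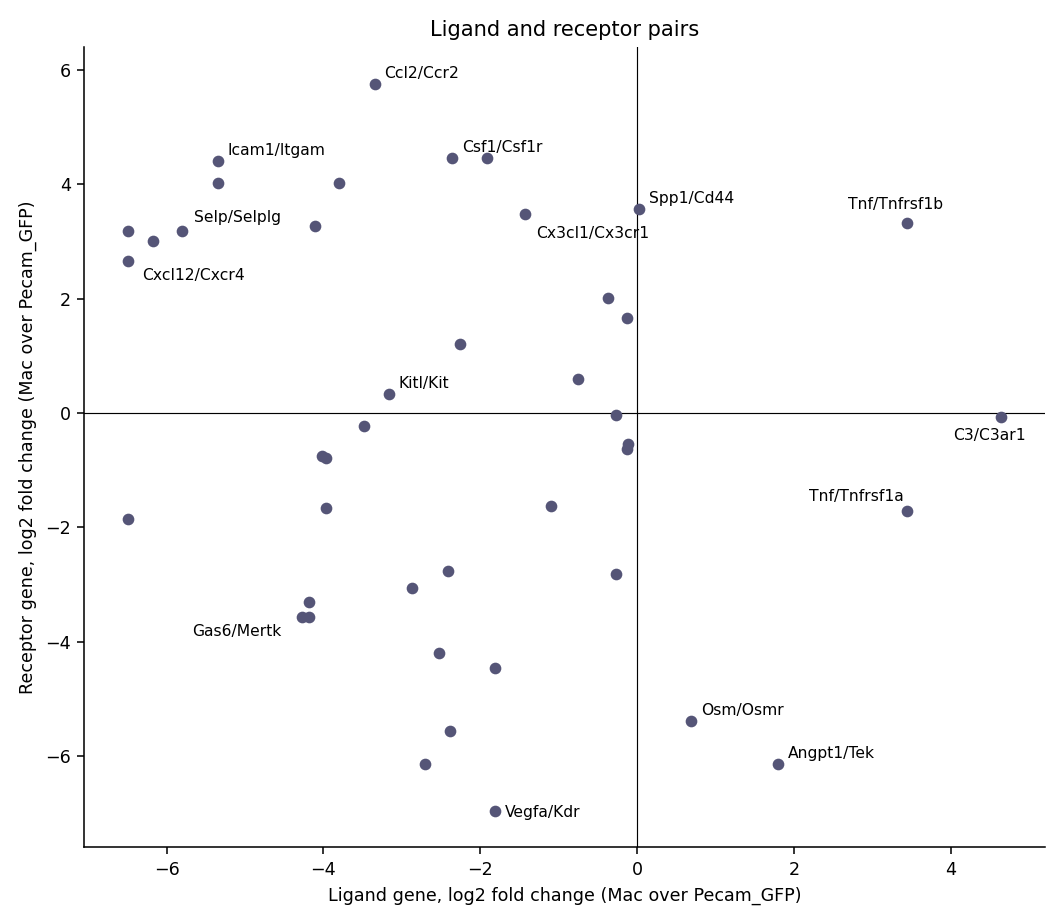
Log2 fold change (Mac over Pecam_GFP) of the receptor gene against that of the ligand gene for each pair in which both were tested. The upper left holds pairs with the ligand lower and the receptor higher in Mac, such as Ccl2 with Ccr2 and Csf1 with Csf1r, the lower left pairs in which both were lower, and Angpt1 with Tek stands at the lower right.

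Of 34 tested interferon-stimulated genes 8 rose and 14 fell (median -0.47). The antiviral genes Mx1 (11.2 ± 1.72 FPKM in Mac, 0.814 ± 0.123 FPKM in Pecam_GFP), Oas2 (9.63 ± 1.40 against 0.444 ± 0.235 FPKM) and Oas3 (9.17 ± 1.35 against 0.543 ± 0.267 FPKM) rose. The immunity-related GTPase genes Iigp1 and Irgm1 fell, examples chosen after their values were seen, as were Oas2 and Oas3. Iigp1 was at 0.493, 1.05, 0.565 and 0.142 FPKM in Mac libraries, against 182, 172, 288 and 162 FPKM in Pecam_GFP libraries (log2 fold change -7.00 ± 0.28, adjusted p = 1.857e-21), and Irgm1 averaged 17.0 ± 0.941 FPKM in Mac and 89.1 ± 32.8 FPKM in Pecam_GFP. Isg15 was not called (4.70 ± 2.204 against 4.75 ± 1.46 FPKM).

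Cell cycle genes were higher in Mac in 23 of 24 cases (median 2.19). Mki67, whose protein is present in cycling cells, was at 45.6, 43.9, 30.2 and 40.9 FPKM in Mac libraries, against 3.74, 3.997, 2.26 and 4.33 FPKM in Pecam_GFP libraries (log2 fold change 3.17 ± 0.23, adjusted p = 3.684e-14). Top2a, a topoisomerase of dividing cells, averaged 171 ± 20.3 FPKM in Mac and 21.3 ± 3.30 FPKM in Pecam_GFP. The exception was the replication clamp gene Pcna, which fell (113 ± 8.62 FPKM in Mac, 162 ± 21.4 FPKM in Pecam_GFP, adjusted p = 0.003243) and was not called under median-of-ratios scaling. The neutrophil precursor genes above moved with these genes, and their part in the cell cycle result was not tested.

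Immediate early genes, which answer signals and tissue digestion within minutes to hours, were lower in Mac in all 22 tested cases (median -3.99). Fosb, a partner of JUN proteins, was at 0.275, 0.195, 0.427 and 0.266 FPKM in Mac libraries, against 384, 412, 194 and 322 FPKM in Pecam_GFP libraries (log2 fold change -7.94 ± 0.18, adjusted p = 2.938e-28). Fos averaged 40.4 ± 2.48 FPKM in Mac and 2277 ± 21.4 FPKM in Pecam_GFP, and Egr1, a zinc finger factor, averaged 1.40 ± 0.273 FPKM in Mac and 403 ± 105 FPKM in Pecam_GFP. Their summed level was 370.2 to 429 FPKM in Mac and 8158 to 8889 FPKM in Pecam_GFP. The list also holds Klf2 and Klf4, which act in endothelium, and the part of cell handling in the other differences was not tested.

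Pecam_GFP libraries held transcripts of further cell types. Of 12 tested erythroid genes 10 fell in Mac and none rose, and the list summed to 17.0 to 170.1 FPKM in Mac against 3198 to 7788 FPKM in Pecam_GFP, most of it from globin genes, whose near copies share reads. Of 14 tested megakaryocyte genes 7 fell; Ppbp, a platelet chemokine, was at 0, 0, 0.468 and 0.202 FPKM in Mac, against 58.0, 65.4, 343 and 284 FPKM in Pecam_GFP. Ppbp and Pf4 were highest in Pecam_GFP replicates 3 and 4. Treml1 differed, with Pecam_GFP replicate 2 at 1.423 FPKM and the others at 6.648 to 7.558 FPKM. The count of 7 was 4 without Pecam_GFP replicate 3 or 4 and without Mac replicate 1, 2 or 4. It was also 4 with no filter and in a fit of the 8 libraries alone.

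Of 16 tested stromal genes 14 fell, and the list summed to 1.997 to 6.64 FPKM in Mac against 393 to 640 FPKM in Pecam_GFP. Adipoq, an adipocyte and stromal hormone, averaged 0.644 ± 0.459 FPKM in Mac, 165 ± 39.3 FPKM in Pecam_GFP and 2678 ± 525 FPKM in Ncad_bone. The pericyte list had 1 riser and 5 fallers of 11, and its sum of 330 to 432 FPKM in Pecam_GFP came largely from the potassium channel genes Kcnj8 (0.0077 ± 0.009 FPKM in Mac, 218 ± 69.2 FPKM in Pecam_GFP) and Abcc9 (0.086 ± 0.029 against 108 ± 26.8 FPKM). Members of the list differed: in Pecam_GFP, Cspg4 was at 0.012 ± 0.020 FPKM and Rgs5 at 1.47 ± 1.30 FPKM, while Mcam and Tagln were also called lower in Mac. The bone matrix gene Ibsp averaged 0.717 ± 0.363 FPKM in Mac and 272 ± 137 FPKM in Pecam_GFP, while the other 7 tested osteoblast genes were below 5 FPKM in both groups on average. What part these cell types have in the differences was not tested.

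Over all tested genes, the 10 largest called rises and falls were named by size. Among the rises were S100a4, a calcium-binding protein of motile cells, at 2257, 2258, 2629 and 2172 FPKM in Mac libraries against 37.0, 54.5, 15.9 and 35.3 FPKM in Pecam_GFP libraries (log2 fold change 6.11), Serpinb10, a protease inhibitor gene of marrow (53.5 ± 4.11 against 0.438 ± 0.305 FPKM, log2 fold change 5.27), and Ccr2, Jchain and Prss34. GENCODE M21 lists Serpinb10 as a polymorphic pseudogene. The other 5 rises, Mir6362, Scarna17, Snord67, Snord7 and n-R5s183, are RNAs too short for FPKM to be reliable. Mir6362, Scarna17 and n-R5s183 were listed at 0 in every Pecam_GFP library. The falls were led by Ackr1 (log2 fold change -11.39) and Ubd, a ubiquitin-like modifier, at 0.192, 0, 0.260 and 0 FPKM in Mac libraries against 2228, 1876, 2113 and 2054 FPKM in Pecam_GFP libraries (log2 fold change -10.87). After them came Tm4sf1, Gpihbp1, Igfbp7, Fabp4, Sparc, Ramp2, Cyp4b1 and Tfpi, with log2 fold changes of -10.24 to -9.19. Gpihbp1 carries lipoprotein lipase across capillaries (0.063 ± 0.096 FPKM in Mac, 1273 ± 207 FPKM in Pecam_GFP), and Tfpi inhibits the start of coagulation (3.995 ± 1.56 against 2878 ± 738 FPKM).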

How the data were processed

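Sorted populations of mouse femur and tibia were profiled by RNA-seq from low-input libraries; the 4 Mac and 4 Pecam_GFP libraries are compared here. The values are FPKM as deposited by the authors. Per the submitters' processing notes, bcl2fastq 2.18, TopHat2 2.0.13, Cufflinks 2.2.1 and build mm10 were used; the notes give no role or order. FPKM adjusts for gene length and library size, keeps no read depth and is unreliable for very short RNAs. Counting of reads shared by near copies, and use of strand, are not given in the sources used here.

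Of 44381 genes, 28 that lacked a value in some library were dropped, and 39726 lay on autosomes 1 to 19 in GENCODE M21, in which 359 gene IDs had no entry. Genes with at least 1 FPKM in 3 or more of 42 libraries of the 10 niche populations were tested on log2(FPKM + 1) with limma 3.58.1 (R 4.3.3, trend on), all 10 populations sharing 1 estimate of the spread, with Benjamini-Hochberg adjustment over all 18179 genes. The code was tested on simulated data. Standard errors are limma's, ± values of FPKM are SDs over 4 libraries, and tests are two-sided. Summaries and figures used Python 3.11.15, pandas 2.3.3, numpy 2.4.6, scipy 1.17.1 and matplotlib 3.10.9.

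Members, gene lists and motifs were chosen with earlier results of these data known. Named genes are the sorting markers, up to 4 called members of each list with the smallest p, the 10 largest rises and 10 largest falls (no overlap, and 5 FPKM or more on average in the group with the higher level), both genes of each ligand-receptor pair, the scavenger receptors, and members of the macrophage, endothelial and niche ligand lists that were not called; other genes named were chosen after their values were seen. Some listed genes are not reported here. Alternatives were a pseudocount of 0.1, no filter, a mean of at least 5 FPKM, median-of-ratios scaling, a fit of the 8 libraries alone, all chromosomes, protein-coding genes only, a replicate block and leaving out each replicate.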

Additional observations from a re-analysis of the deposited data

Results flagged for a closer look

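Of 368 groups of 4 libraries checked, 18 held a library whose gap to the nearest other, as a share of the group's range, exceeded the critical value of Dixon's test; chance flags about 1 in 20 groups. No explanation was tested.

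Within Mac, replicate 1 was low for the transcription factor gene Maf (1.563 FPKM, the others 2.165 to 2.21). Replicate 2 was low for the actin-binding gene Tagln (0.668 FPKM, the others 1.049 to 1.111). Replicate 3 was high for the antigen-processing genes Ifi30 (195.1 FPKM, the others 164.2 to 168.2) and H2-DMa (93.0 FPKM, the others 51.86 to 56.72) and for Ackr1 (2.162 FPKM, the others 0 to 0.051), and low for the platelet receptor gene Clec1b (1.418 FPKM, the others 2.651 to 2.93). Replicate 4 was low for Tgfb1 (9.813 FPKM, the others 13.66 to 14.51).

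Within Pecam_GFP, replicate 1 stood apart for 7 genes. It was high for the leukocyte genes Spn (2.027 FPKM, the others 0.56 to 0.735), Selplg (9.745 FPKM, the others 5.685 to 5.966) and C3ar1 (1.149 FPKM, the others 0.242 to 0.334), for Prg2 (28.71 FPKM, the others 0.114 to 0.521) and for Prss34 (136.6 FPKM, the others 0 to 0.071). It was low for the mitotic kinase gene Aurkb (2.736 FPKM, the others 5.299 to 5.862) and the pre-B cell gene Vpreb3 (20.84 FPKM, the others 37.42 to 40.92). Replicate 2 was low for the platelet gene Treml1 (1.423 FPKM, the others 6.648 to 7.558). Replicate 3 was low for Robo4 (59.09 FPKM, the others 87.02 to 91.94). Replicate 4 was high for Il10 (1.621 FPKM, the others 0 to 0.118) and for the short RNA Snord7 (21.08 FPKM, listed at 0 in the others).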

How the results depend on the processing

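Depth cannot be had from FPKM, and very short RNAs and near-identical copies limit single values. With genes of a mean of at least 5 FPKM, 9373 were tested and 5476 called, 1846 higher and 3630 lower in Mac; fewer genes were tested. Leaving out 1 library at a time gave 8420 to 8893 genes called, 3227 to 3374 higher and 5107 to 5584 lower. Under median-of-ratios scaling 46.7% of calls were higher, against 38.8% in the fit reported, and the median log2 fold change was -0.01 in place of -0.11, since the scaling factors differed by -0.22 (mean log2, Mac minus Pecam_GFP).

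Replicate numbers did not pair the libraries: same-numbered Mac and Pecam_GFP libraries had correlations of their deviations of 0, 0.043, 0.066 and -0.041. With the replicate number as a block 8839 genes were called (3424 higher, 5415 lower), and with the block in a fit of the 8 libraries alone 6939 (2607 higher, 4332 lower). In that last fit 4 of the 9 eosinophil, mast cell and basophil genes were called higher, against 8 in the fit reported.

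No named gene reversed direction under an alternative, among genes called in the fit reported or in that alternative. A change of sign in a gene called in neither was not counted. Of 239 named genes, 225 kept their call or lack of one in every setting that tested them, and 14 changed it in at least 1. Sirpa, a brake on phagocytosis, fell in the fit reported and was not called under median-of-ratios scaling (log2 fold change -0.32, limma adjusted p = 0.1531). With the block in the fit of 8 libraries, 7 named genes lost their call, among them Prg2, Notch4, Notch1, Pdgfrb and Tnfrsf11a (limma adjusted p = 0.1264, 0.05676, 0.07917, 0.06114 and 0.1813).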

Other observations

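The dendritic cell list held genes of both groups, with 5 of 9 tested rising and 3 falling in Mac (median log2 fold change 0.56). Zbtb46, a transcription factor of classical dendritic cells and of endothelium, averaged 0.307 FPKM in Mac and 21.8 FPKM in Pecam_GFP. Of 5 tested osteoclast genes 2 rose and 1 fell; 1 rose when Pecam_GFP replicate 2 was left out.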
